A study of Mus musculus with 6 samples.

Results

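Transcript levels of heme and iron handling genes were described in mouse kidneys 24 h after renal ischemia-reperfusion injury (IRI). The genes were *Hmox1*, *Hp*, *Hpx*, *Fth1*, *Ftl1*, *Trf*, *Tfrc*, *Slc40a1*, *Slc11a2* and *Cp*. They were chosen by symbol, and all 10 of 10 were found among the 21367 genes of the deposited table. One group was 3 *Ptpn6*+/mev mice, which carry 1 viable motheaten allele of *Ptpn6*, the gene of the tyrosine phosphatase SHP-1, in every cell, and which the labels call SHP1 knockdown. The other was 3 wild-type littermates. All 6 mice were 7 weeks old, on a C57BL/6 background, and had the right kidney resected and the left pedicle clamped for 34 min. Poly-A mRNA of the left kidney was sequenced, 1 library per mouse, with 10271590 to 12361745 estimated fragments per library, and uninjured kidneys were not analysed here.

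Free heme and free iron catalyse the formation of reactive oxygen species, so both are kept bound. Haptoglobin (*Hp*) and hemopexin (*Hpx*) capture hemoglobin and heme in plasma, and heme oxygenase 1 (*Hmox1*) opens the heme ring in the cell and releases its iron. Ferritin stores iron in a shell of heavy (*Fth1*) and light (*Ftl1*) chains, transferrin (*Trf*) carries it in plasma and the transferrin receptor (*Tfrc*) brings it into the cell. DMT1 (*Slc11a2*) moves ferrous iron across membranes, ferroportin (*Slc40a1*) exports it, and ceruloplasmin (*Cp*) oxidises it for transferrin. In the injured kidney, *Hmox1* and ferritin are known as parts of the defence of the tubule.

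The mRNAs of ferritin, ferroportin and the transferrin receptor share a control site, the iron-responsive element (IRE), a hairpin bound by iron regulatory proteins when iron is scarce. Binding in the 5′ UTR blocks translation, and binding in the 3′ UTR protects the mRNA from decay. The 7 hairpins found in the GENCODE M21 transcripts (GRCm38) are shown because they are a feature that 4 of the members share and by which they were not chosen. Each is 30 bases, 5′ to 3′, with its 6-base loop, CAGTGN, in capitals.

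Fth1: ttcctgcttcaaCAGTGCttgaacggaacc
Ftl1: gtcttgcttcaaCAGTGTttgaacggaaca
Slc40a1: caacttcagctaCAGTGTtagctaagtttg
Tfrc a: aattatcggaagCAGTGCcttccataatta
Tfrc b: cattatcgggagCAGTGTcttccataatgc
Tfrc c: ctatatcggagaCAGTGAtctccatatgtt
Tfrc d: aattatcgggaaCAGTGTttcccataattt

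The *Fth1* hairpin lies in the 5′ UTR, exon 1, at chr19:9982732-9982761 on the plus strand in transcript Fth1-201, and the same bases are in exon 2 of Fth1-203. That of *Ftl1* is also in the 5′ UTR, exon 1, at chr7:45459778-45459807 on the minus strand, and that of *Slc40a1* in the 5′ UTR, exon 1, at chr1:45925464-45925493 on the minus strand. The *Tfrc* hairpins a to d all lie in the 3′ UTR, exon 19, on the plus strand of chromosome 16, at chr16:32631219-32631248, chr16:32631598-32631627, chr16:32631663-32631692 and chr16:32631710-32631739. The pattern searched on the transcript strand was a C, 5 bases, CAGTGN and 5 bases that can pair with the first 5, G with T included. It occurs in 294 of 21877 coding genes (1.34%), and *Tfrc* was the 1 gene with 4 matches in a transcript. The 4 members with a match were *Fth1*, *Ftl1*, *Slc40a1* and *Tfrc*, and for the other 6 the search says only that this exact pattern is not in their transcripts. A match is a pattern of letters, and binding was not measured.

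Levels of the members spanned several orders of magnitude in FPKM (fragments per kilobase of transcript, scaled to the size of the library). The ferritin chains led, with a mean over the 6 libraries of 13791 FPKM for *Fth1* and 2935 for *Ftl1*, followed by *Hmox1* at 439. *Slc11a2* (30.6), *Hp* (25.9), *Slc40a1* (24.3), *Tfrc* (18.8) and *Cp* (17.3) came next, then *Trf* (10.2) and *Hpx* (0.13). *Fth1*, *Ftl1* and *Hmox1* each stood above the next gene in every library, as did *Cp* above *Trf* and *Trf* above *Hpx*. The neighbours from *Slc11a2* to *Cp* changed places between libraries and are not separated by their spread. *Fth1* was the third most abundant transcript of each library.

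**Figure D1:**
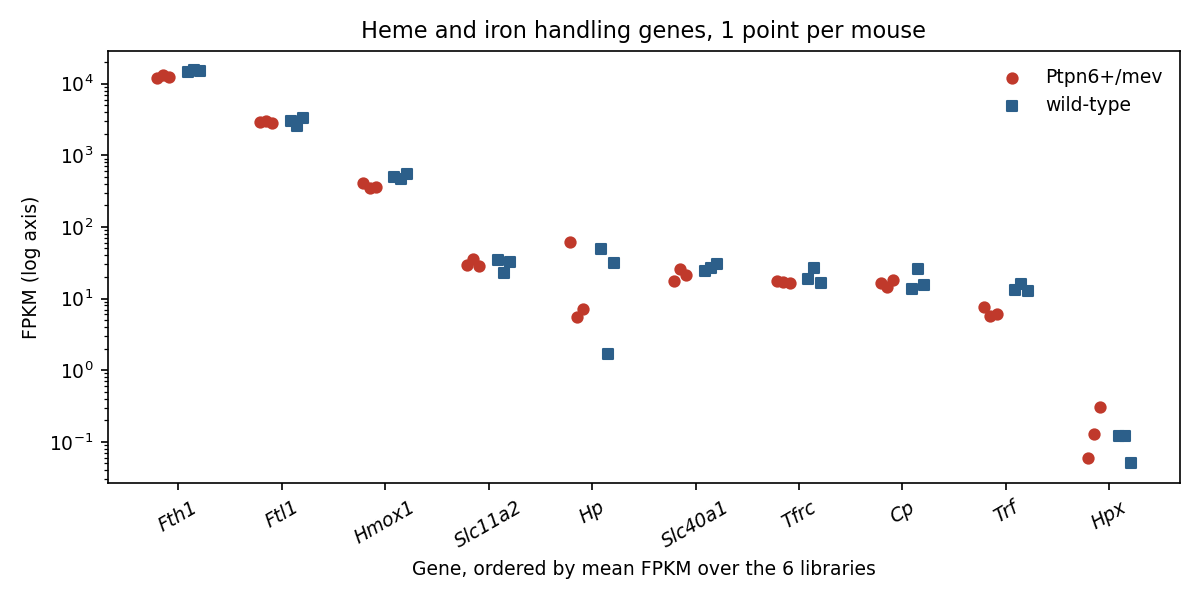
FPKM of the 10 members on a log axis, 1 point per mouse, with *Ptpn6*+/mev libraries as red circles and wild-type libraries as blue squares. The ferritin chains and *Hmox1* lie above all other members, *Hp* spreads from 1.69 to 60.96 FPKM, and *Hpx* stays at or below 0.31 FPKM.

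The question of the comparison was whether these levels differed between *Ptpn6*+/mev and wild-type kidneys after IRI. Levels of *Trf*, *Hmox1* and *Fth1* were lower in each of the 3 *Ptpn6*+/mev libraries than in any wild-type library, but no member passed the main test. That test was the edgeR quasi-likelihood test, with the Benjamini-Hochberg false discovery rate (FDR) over the 13036 genes tested and a threshold of 0.05. It called 0 of the 9 tested members, against 0.069% of tested genes called lower (9 genes) and 0.069% called higher. At an unadjusted p under 0.05, 4 of 9 members were lower and 0 higher, where 6.71% of all tested genes were lower and 5.53% higher. The log2 fold change (*Ptpn6*+/mev over wild-type) was negative for 9 of 9 members, with a median of -0.33, against -0.002 over all tested genes. *Hpx* was below the count filter and was not tested.

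For 3 members the groups did not overlap, all lower, on FPKM and on counts scaled to library size with edgeR's TMM factors (CPM) alike. Of all tested genes, 6.38% did so in this direction on FPKM and 9.8% on scaled counts. Over all genes the direction of such separation depended on the scale, with 832 genes lower and 1824 higher (14%) on FPKM and 1278 lower and 1257 higher (9.64%) on scaled counts. Other tests called some of the members: the DESeq2 Wald test called 3 lower (*Trf*, *Hmox1* and *Fth1*, background 1.88%), and the edgeR exact test 2 (*Trf* and *Hmox1*, background 1.78%). The quasi-likelihood test without wild-type library 2 also called *Trf* and *Hmox1* (background 1.01%). In bulk tissue, fewer cells of a type and less RNA per cell cannot be told apart.

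**Figure D2:**
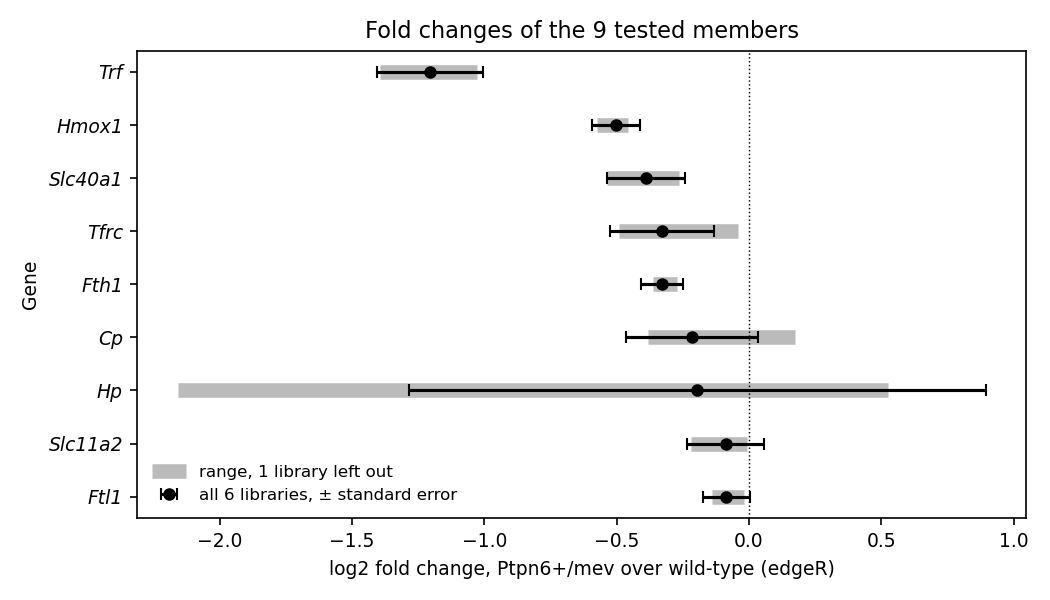
Log2 fold change (*Ptpn6*+/mev over wild-type, edgeR) of the 9 tested members, with points and bars for the estimate ± standard error from all 6 libraries and grey bands for the range when 1 library is left out. All estimates lie below 0, *Trf* lies lowest at -1.20, and the bands of *Hp* and *Cp* cross 0.

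*Hmox1* (ENSMUSG00000005413; chr8:75093621-75100589, plus strand), the inducible enzyme that degrades heme, was at 409.06, 350.54 and 361.30 FPKM in *Ptpn6*+/mev libraries 1 to 3. In wild-type libraries 1 to 3 it was at 496.38, 466.18 and 552.20 FPKM. The highest mutant library thus lay below the lowest wild-type library, with means of 374 ± 31.1 and 505 ± 43.6 FPKM (SD, n = 3 each). The log2 fold change was -0.50 ± 0.09 (SE), or 0.706 times the wild-type level. The edgeR quasi-likelihood FDR was 0.087 (p = 0.00056), the DESeq2 FDR 0.000617 and the FDR of the edgeR exact test 0.00695. Without wild-type library 2 the quasi-likelihood FDR was 0.030, and over all alternatives and tools the FDR ranged from 0.000617 to 0.438. The estimate itself stayed between -0.57 and -0.46 when any 1 library was left out.

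*Hp* (ENSMUSG00000031722; chr8:109575128-109579172, minus strand), which encodes the plasma protein that binds free hemoglobin, varied more than any other tested member. It was at 60.96, 5.44 and 7.09 FPKM in *Ptpn6*+/mev libraries 1 to 3 and at 48.51, 1.69 and 31.42 FPKM in wild-type libraries 1 to 3. One mutant and 2 wild-type libraries were thus high and the other 3 low, and the highest library held 36.1 times the level of the lowest. The estimated counts were 845, 76 and 103 against 706, 25 and 524. A log2 fold change of -0.20 ± 1.09 (SE, edgeR FDR = 0.97) could not be distinguished from 0. It moved to -2.16 without *Ptpn6*+/mev library 1 and to 0.52 without wild-type library 1.

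The libraries high in *Hp* were also high in transcripts of fat cells, a list chosen after the values were seen. *Adipoq*, the adipocyte hormone adiponectin, was at 5.19, 0 and 0 FPKM in *Ptpn6*+/mev libraries 1 to 3 and at 4.36, 0.07 and 7.30 FPKM in wild-type libraries 1 to 3. *Cfd*, the adipocyte protease adipsin, was at 50.98, 0 and 0.32 FPKM against 71.64, 1.11 and 57.03. Both rank the same 3 libraries above the others as *Hp* does. In all, 7 of the 8 genes of the list had these 3 libraries above the other 3. The 1 exception, *Cidec*, a lipid droplet protein, was at 9.39, 1.07 and 0.54 FPKM against 10.77, 10.38 and 7.98, and so was high in wild-type library 2, where *Hp* was lowest. *Fabp4*, a fatty acid carrier also made outside fat cells, was at 137.07 to 175.85 FPKM in the 3 libraries high in *Hp* and at 46.00 to 104.81 FPKM in the 3 low ones. The summed FPKM of the 8 adipocyte genes was 87.3 to 258 in the mutant and 61.0 to 278 in the wild-type group, and 0 of the 7 tested genes was called with all 6 libraries. When 1 library was left out, the lowest log2 fold change of *Cidec* was -3.88 and its lowest edgeR FDR 0.019. The part of the adipocyte transcripts in the *Hp* values was not tested.

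**Figure D3:**
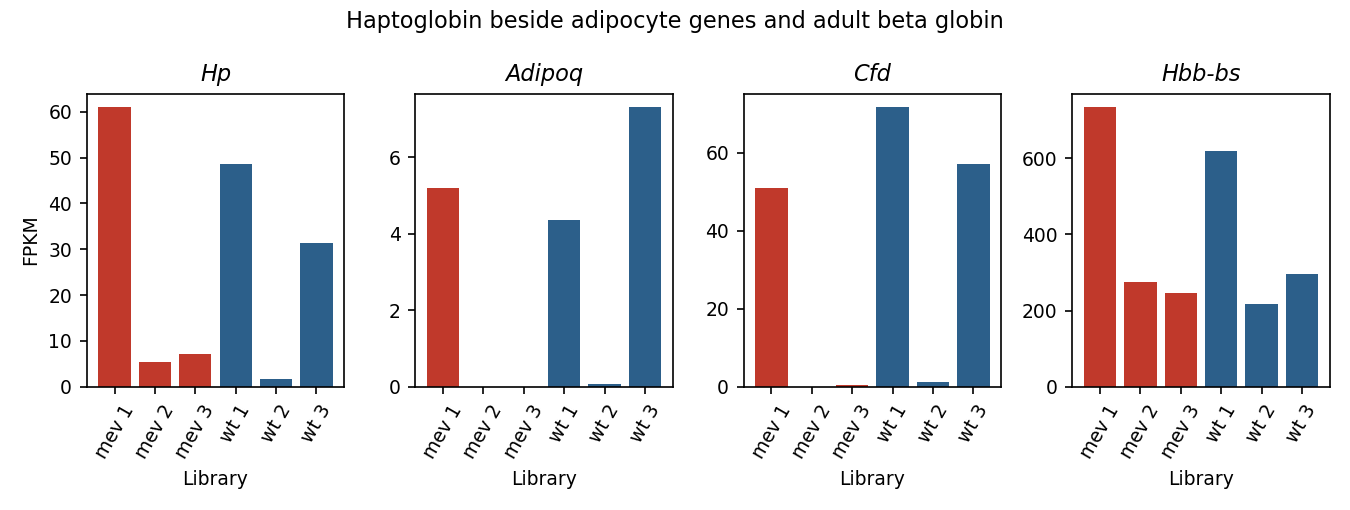
FPKM of *Hp*, *Adipoq*, *Cfd* and *Hbb-bs* in each library (bars; red, *Ptpn6*+/mev, shown as mev; blue, wild-type, shown as wt), with a separate linear axis from 0 for each gene. *Hp*, *Adipoq* and *Cfd* are high in mev 1, wt 1 and wt 3. The beta globin gene *Hbb-bs* is highest in mev 1 (733.81) and wt 1 (619.40), and wt 3 (296.50) comes next, near mev 2 (274.64).

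Globin transcripts of red blood cells, the source of hemoglobin, were also highest in *Ptpn6*+/mev library 1 and wild-type library 1, but with a different spacing of the libraries. *Hbb-bs* was at 733.81, 274.64 and 246.11 FPKM in the mutant libraries and at 619.40, 218.35 and 296.50 FPKM in the wild-type libraries. The alpha globin gene *Hba-a2* was at 501.48, 192.14 and 187.99 against 374.56, 144.51 and 202.48 FPKM. For both globins *Ptpn6*+/mev library 1 and wild-type library 1 stood apart. Wild-type library 3, high in *Hp*, came next for both but lay close to the low libraries. It did not come next for *Hba-a1*, where it was lowest (102.67 FPKM), or for *Hbb-bt* (40.49 against 42.99 FPKM in *Ptpn6*+/mev library 2). The part of red cell transcripts in the *Hp* values was not tested. The summed FPKM of the red cell list was 1637 and 1301 in those libraries and 505 to 648 in the other 4. Of 7 tested red cell genes 0 were called, where 0.069% of all tested genes were called lower and 0.069% higher. At an unadjusted p under 0.05, 1 was higher, where 5.53% of all tested genes were higher. The 1 red cell gene was *Slc4a1*, an anion exchanger of red cells that the collecting duct also makes and that the distal nephron list holds too. It did not follow the globin order, with its highest level in *Ptpn6*+/mev library 2 (4.25 FPKM).

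*Hpx* (ENSMUSG00000030895; chr7:105591613-105600137, minus strand), the plasma carrier of heme, was barely detected. Its estimated counts were 1, 2 and 5 in *Ptpn6*+/mev libraries 1 to 3 and 2, 2 and 1 in wild-type libraries 1 to 3, at 0.05 to 0.31 FPKM. At this depth no difference was detectable and no fold change is given.

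*Fth1* (ENSMUSG00000024661; chr19:9980598-9985098, plus strand), the ferritin chain that oxidises iron for storage, was at 12092.7, 13110.5 and 12503.3 FPKM in *Ptpn6*+/mev libraries 1 to 3. The wild-type libraries 1 to 3 held 14583.7, 15289.2 and 15167.7 FPKM. The groups did not overlap, and their means were 12569 ± 512 and 15014 ± 377 FPKM (SD, n = 3 each). *Fth1* had a log2 fold change of -0.33 ± 0.08 (SE), or 0.797 times the wild-type level, with an edgeR quasi-likelihood FDR of 0.15. DESeq2 gave an FDR of 0.023 and the edgeR exact test 0.16, and over all alternatives the FDR ranged from 0.0235 to 0.542. Leaving out 1 library kept the estimate between -0.36 and -0.27.

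This 1 gene took 1.09% ± 0.04 of all estimated fragments in the mutant group and 1.30% ± 0.03 in the wild-type group (SD, n = 3 each). The share was 1.05% in *Ptpn6*+/mev library 1 (95% Wilson interval 1.04 to 1.06%), the lowest, and 1.33% in wild-type library 2 (1.32 to 1.34%), the highest. The nearest libraries across the groups were *Ptpn6*+/mev library 2, at 1.14% (1.13 to 1.15%), and wild-type library 1, at 1.27% (1.26 to 1.27%). Such intervals cover counting error only.

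*Ftl1* (ENSMUSG00000050708; chr7:45457944-45459884, minus strand), the ferritin chain that helps iron to mineralise, did not share this separation. Its FPKM was 2877.89, 3026.81 and 2839.19 in the mutant libraries and 2982.59, 2562.79 and 3317.71 in the wild-type libraries, whose range holds that of the mutants. The log2 fold change was -0.09 ± 0.09 (SE, edgeR FDR = 0.77). Its counts were fractional in some libraries, and *Ftl1* has near-identical copies elsewhere in the genome, so its level is uncertain to that extent.

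The ratio of *Fth1* to *Ftl1* FPKM was 4.20, 4.33 and 4.40 in the *Ptpn6*+/mev and 4.89, 5.97 and 4.57 in the wild-type libraries. Every mutant library had a lower ratio of heavy to light chain mRNA than any wild-type library, 4.31 ± 0.10 against 5.14 ± 0.73 (SD, n = 3 each). Wild-type library 2 holds both the highest *Fth1* and the lowest *Ftl1* level. On the log2 scale the mutant ratio differed from the wild-type ratio by -0.24, and by -0.13 without wild-type library 2. No test was run on the ratio.

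*Trf* (ENSMUSG00000032554; chr9:103204001-103230444, minus strand), which encodes the iron carrier of plasma, had the lowest fold change of the tested members. It was at 7.74, 5.66 and 6.05 FPKM in *Ptpn6*+/mev libraries 1 to 3 and at 13.02, 16.18 and 12.84 FPKM in wild-type libraries 1 to 3. The groups were well apart, at 6.48 ± 1.11 and 14.0 ± 1.88 FPKM (SD, n = 3 each), on estimated counts of 135.14 to 204.65 and 349.73 to 449.91. *Trf* had a log2 fold change of -1.20 ± 0.20 (SE), or 0.434 times the wild-type level. The edgeR quasi-likelihood FDR was 0.070 (p = 0.00032), and the FDR was 2.9e-05 with DESeq2, 2.7e-05 with the edgeR exact test, 0.048 without the count filter and 0.025 without wild-type library 2. Over all alternatives it ranged from 2.7e-05 to 0.382, while the estimate stayed between -1.39 and -1.03 when 1 library was left out.

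*Trf* overlaps *Gm20425* on the same strand, and its fractional counts show that reads were divided between genes. Summed, *Trf* and *Gm20425* were at 36.7, 31.0 and 21.8 TMM-scaled CPM in the mutant libraries and 61.6, 65.0 and 59.4 in the wild-type libraries. The sums were also apart, at 29.8 ± 7.50 and 62.0 ± 2.80 (SD, n = 3 each).

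Beside *Trf*, other plasma protein genes were read as a list, named for the hepatocyte that secretes their products. Of the 12 listed, 10 were tested, the edgeR quasi-likelihood test called 0, and 7 had an unadjusted p under 0.05, all lower, where 6.71% of all tested genes were lower at that level. DESeq2 called 6 of them lower (*Alb*, *Fga*, *Fgb*, *Fgg*, *Serpina1a* and *Gc*) and the edgeR exact test the same genes but *Serpina1a*, against 1.88% and 1.78% of all genes. Without wild-type library 2 the quasi-likelihood test called *Alb* and *Fga* lower, against 1.01% of all genes. The list median log2 fold change was -0.92, against -0.002 over all tested genes. *Fgg*, a fibrinogen chain, was at 173.62, 250.00 and 231.02 FPKM in *Ptpn6*+/mev against 283.84, 482.68 and 385.48 FPKM in wild-type libraries, and no library of one group reached the other. *Fga*, another fibrinogen chain, was at 145.26, 179.69 and 164.96 FPKM against 244.91, 358.21 and 374.18, with a log2 fold change of -1.07 ± 0.17 (SE, edgeR FDR = 0.068). The 3 tested genes above the unadjusted threshold were *Apoa2*, *Apoh* and *Ttr*, all with overlapping groups. *Ttr*, the carrier of thyroid hormone, pointed the other way, at 32.95, 25.49 and 38.14 FPKM against 23.80, 30.61 and 19.18. The summed FPKM of the list was 409 to 525 in the mutant and 644 to 1002 in the wild-type group. The liver-defining *Ahsg* was listed at 0 in every library, and *Alb*, the liver's main secreted product and named after its values were seen, was at 1.70 to 2.23 and 3.68 to 6.29 FPKM.

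**Figure D4:**
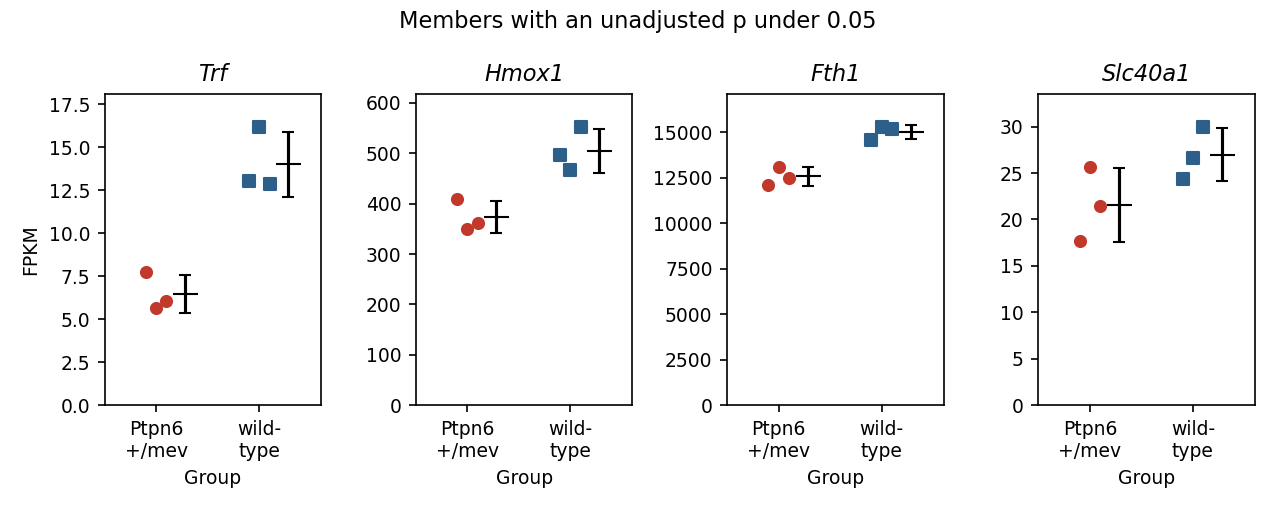
FPKM of the 4 members with an unadjusted p under 0.05, 1 point per mouse (red circles, *Ptpn6*+/mev; blue squares, wild-type), with the group mean ± SD in black and linear axes from 0. The groups are apart for *Trf*, *Hmox1* and *Fth1*, and for *Slc40a1* mutant library 2 (25.66) lies above wild-type library 1 (24.32).

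*Tfrc* (ENSMUSG00000022797; chr16:32608920-32632794, plus strand), the receptor that takes up iron-loaded transferrin, was at 17.72, 16.97 and 16.65 FPKM in the *Ptpn6*+/mev libraries. The wild-type libraries held 18.45, 26.58 and 16.38 FPKM. Wild-type library 2 alone was high, and the other 5 lay close together. Its log2 fold change of -0.33 ± 0.20 (SE, edgeR FDR = 0.57) was -0.04 without that library. The mutant libraries varied little among themselves, with an SD of 0.55 FPKM around a mean of 17.1.

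*Slc40a1* (ENSMUSG00000025993; chr1:45908068-45926523, minus strand), the iron exporter, was at 17.68, 25.66 and 21.46 FPKM in the *Ptpn6*+/mev and 24.32, 26.59 and 29.96 FPKM in the wild-type libraries. The groups overlapped at 1 mutant library. *Slc40a1* had a log2 fold change of -0.39 ± 0.15 (SE), with an FDR of 0.34 in edgeR. It was -0.26 without *Ptpn6*+/mev library 1 and -0.53 without library 2, and no alternative gave an FDR under 0.249.

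*Slc11a2* (ENSMUSG00000023030; chr15:100387898-100425072, minus strand), the ferrous iron transporter, was at 29.69, 36.05 and 28.87 FPKM in the mutant libraries. It was at 34.70, 22.47 and 31.86 FPKM in the wild-type libraries, whose library 2 was the lowest of all 6. The log2 fold change was -0.09 ± 0.14 (SE, edgeR FDR = 0.87) and 0.10 with limma on log2(FPKM + 1). On that scale the median over all tested genes was 0.06, against -0.002 in the main test. The gene overlaps *Gm5475* on the opposite strand, and whether counting used strand is not given in the sources used here.

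*Cp* (ENSMUSG00000003617; chr3:19957054-20009145, plus strand), the copper-containing ferroxidase, was at 16.58, 14.47 and 17.96 FPKM in *Ptpn6*+/mev and 13.61, 25.55 and 15.39 FPKM in wild-type libraries. Wild-type library 2 was again the high one. The log2 fold change was -0.22 ± 0.25 (SE, edgeR FDR = 0.81) and turned to 0.18 without that library. *Cp* overlaps *Hps3* on the opposite strand.

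Wild-type library 2 stood apart from the rest of its group beyond these genes. Its TMM factor was 0.929 against 0.994 to 1.03, and the summed FPKM of the endothelial list was 125 there and 284 to 328 elsewhere. The macrophage list, cells that recycle heme iron, summed to 64.9 in it and to 104 to 135 in the other libraries. The proximal tubule list summed to 11639 against 2882 to 3976, mainly through *Kap* (10201 against 1520 to 2882 FPKM). Other genes of that list pointed both ways in wild-type library 2. *Slc27a2* (744.91 FPKM), *Slc22a6* (182.51) and *Slc22a8* (24.88) were at their highest of the 6 there, *Slc34a1* (175.57) and *Slc5a2* (64.83) at their lowest, and the rest in between. Wild-type library 2 held the highest *Tfrc*, *Cp*, *Trf* and *Fth1* and the lowest *Hp*, *Ftl1* and *Slc11a2* level of the 6. The part of cell composition in these values was not tested.

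Between the groups, 0 of 9 tested macrophage genes, 0 of 5 neutrophil genes and 0 of 8 endothelial genes had an unadjusted p under 0.05 in edgeR. The most abundant of these were the complement genes *C1qb* (0.18 ± 0.20) and *C1qa* (0.07 ± 0.20), the neutrophil calprotectin genes *S100a9* (0.02 ± 0.36) and *S100a8* (-0.19 ± 0.35), and the endothelial *Plvap* (0.11 ± 0.36) and *Egfl7* (0.09 ± 0.19), each with its log2 fold change and SE. When 1 library was left out, *Plvap* ranged from -0.25 to 0.35, *Egfl7* from -0.09 to 0.30 and *C1qb* from 0.003 to 0.32. *C1qa*, *S100a9* and *S100a8* also turned sign. The lowest unadjusted p in these edgeR quasi-likelihood fits was 0.014 for *Plvap*. It was 0.021 for the endothelial *Emcn*, 0.042 for the macrophage gene *Cd68* and 0.046 for the endothelial *Pecam1*.

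Of 10 proximal tubule genes, 5 were lower at an unadjusted p under 0.05 and 1 was called, the organic anion transporter *Slc22a8* (log2 fold change -0.91 ± 0.12, SE, edgeR quasi-likelihood FDR = 0.044). Over its alternatives the FDR of *Slc22a8* ranged from 3.7e-07 to 0.354, and it was above 0.05 with limma, with the replicate block and when any library but wild-type library 2 was left out. DESeq2 and the edgeR exact test each called 4 genes of this list lower, *Slc22a6*, *Slc22a8*, *Cubn* and *Miox*, against 1.88% and 1.78% of all genes. Without wild-type library 2 the quasi-likelihood test called these 4 and *Lrp2*, against 1.01% of all genes. The most abundant genes of the list, *Kap* and the fatty acid transporter *Slc27a2*, had log2 fold changes of -0.99 ± 0.64 and -0.40 ± 0.19 (SE, edgeR FDR = 0.60 and 0.45). When 1 library was left out, *Kap* ranged from -1.42 to 0.35, and so had no settled sign, and *Slc27a2* from -0.56 to -0.17.

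Of 9 tested genes of the thick limb and distal nephron 1 was lower and 1 higher at an unadjusted p under 0.05. Its most abundant genes were uromodulin (*Umod*, -0.13 ± 0.17) and the water channel *Aqp2* (-0.54 ± 0.47), given as log2 fold change ± SE. Both turned sign when 1 library was left out, *Umod* ranging from -0.26 to 0.03 and *Aqp2* from -0.84 to 0.30. Of 8 tubular injury genes 1 was lower and 2 higher at that level, 3 log2 fold changes were negative and 5 positive, and the quasi-likelihood test called 0. The lower one was osteopontin (*Spp1*), the most abundant at 25626 FPKM (-0.38 ± 0.14, SE, edgeR FDR = 0.33), followed by clusterin (*Clu*, 0.08 ± 0.14, SE, edgeR FDR = 0.88). The higher ones were *Havcr1*, the injury marker KIM-1 (0.27 ± 0.10, SE, edgeR FDR = 0.33), and *Vcam1*. *Vcam1*, an adhesion molecule of the injured tubule, was higher in every mutant library, with a log2 fold change of 1.05 ± 0.28 (SE) and an FDR of 0.19 in that test, 0.012 in DESeq2 and 0.018 in the edgeR exact test. Without wild-type library 2 the quasi-likelihood test called *Krt20*, a keratin of the injured tubule, higher (FDR = 0.029), where its FDR with all libraries was 0.89. Over all tested genes 6.71% were lower and 5.53% higher at that level, and 0.069% were called lower. *Slc4a1* is the 1 higher gene of the distal nephron list and the same gene as in the red cell list. *Ptpn6* itself, as the check of the labels, was at 11.85, 14.66 and 13.61 FPKM in *Ptpn6*+/mev and 17.47, 10.87 and 15.44 FPKM in wild-type libraries (edgeR FDR = 0.71). Its mRNA level therefore did not separate the genotypes, and the motheaten allele changes a splice site rather than removing the gene.

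The wider heme and iron pathway was read from 5 lists of 55 genes, all in the table and 49 of them tested. The edgeR quasi-likelihood test called 0 of them. At an unadjusted p under 0.05, 7 were lower and 2 higher, and the median log2 fold change was -0.08, with 31 negative and 18 positive values. Over all tested genes 6.71% were lower and 5.53% higher at that level, and the median was -0.002. DESeq2 and the edgeR exact test each called 2 lower and 1 higher, the same 3 genes, *Hfe*, *Cubn* and *Steap3*. Over all genes DESeq2 called 1.88% lower and 1.09% higher, and the exact test 1.78% lower and 1.21% higher. Without wild-type library 2 the quasi-likelihood test called *Cubn* and *Lrp2* lower and *Steap3* higher, against 1.01% and 0.759% of all genes. *Cubn* and *Lrp2* are the same genes as in the proximal tubule list, so their calls are not separate from those given there. Groups were apart on FPKM for 4 pathway genes lower and 6 higher, but on scaled counts for 7 lower and 2 higher. The shares over all genes were 6.38% lower and 14% higher on FPKM and 9.8% and 9.64% on scaled counts. These 3 and the other genes below that are not the most abundant of a list were named after their values were seen.

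In heme synthesis, 7 of 8 enzymes had a negative log2 fold change, with a list median of -0.19 and 1 enzyme under the unadjusted threshold. That was *Alad*, the enzyme that joins 2 molecules of aminolevulinic acid, at 40.71, 55.88 and 44.23 FPKM in *Ptpn6*+/mev against 57.45, 68.02 and 61.77 FPKM in wild-type libraries (-0.48 ± 0.15, SE, edgeR FDR = 0.23). *Alas1*, which makes the first precursor, was the most abundant at 288.5 FPKM on average (-0.34 ± 0.16, SE, edgeR FDR = 0.45). *Fech*, which inserts iron into the ring, followed at 73.0 FPKM (-0.21 ± 0.10, SE, edgeR FDR = 0.45).

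In heme breakdown and transport, 6 of 9 tested genes had a negative value and the median was -0.19. *Abcg2*, an exporter of porphyrins, was the most abundant at 248 FPKM (-0.19 ± 0.21, SE, edgeR FDR = 0.79). Its highest level was in wild-type library 2 (366.25 FPKM), and its estimate ranged from -0.34 to 0.14 when 1 library was left out. *Slc48a1*, a heme transporter of lysosomes, was at 150.56 to 177.90 FPKM in the mutant and 170.35 to 192.95 FPKM in the wild-type group (-0.26 ± 0.11, SE, edgeR FDR = 0.38) and was the 1 gene under the unadjusted threshold. *Hmox2*, the constitutive heme oxygenase, had a log2 fold change of 0.11 ± 0.09 (SE, edgeR FDR = 0.70), beside -0.50 for *Hmox1*. The 2 enzymes were not tested against each other.

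In iron sensing and the hepcidin pathway, 4 of 7 tested genes had a negative value, and 2 were under the unadjusted threshold. *Hfe*, a partner of the transferrin receptors, was at 23.76, 18.87 and 20.95 FPKM in *Ptpn6*+/mev against 28.67, 32.31 and 29.13 FPKM in wild-type libraries, with no overlap. Its log2 fold change was -0.58 ± 0.13 (SE), with an FDR of 0.12 in edgeR, 0.014 in DESeq2 and 0.011 in the edgeR exact test. *Aco1*, which encodes iron regulatory protein 1, a protein known to bind such hairpins, was at 98.2 FPKM on average (-0.22 ± 0.08, SE, edgeR FDR = 0.32). *Ncoa4*, the receptor that brings ferritin to the lysosome, was at 53.3 FPKM (-0.07 ± 0.14, SE, edgeR FDR = 0.90). Its FPKM was higher in every mutant library, at 57.13, 52.84 and 54.95 against 50.84, 51.91 and 52.25. The direction thus depended on the scale, and on counts also on the library left out, from -0.15 to 0.10. *Ireb2*, which encodes iron regulatory protein 2, also a binder of such hairpins, was likewise higher on FPKM, at 11.51, 8.89 and 10.34 against 8.73, 8.01 and 7.30, and had a log2 fold change of -0.08 ± 0.27 on counts (SE, edgeR FDR = 0.95). That value ranged from -0.26 to 0.34 when 1 library was left out. Its estimated counts were 246, 452 and 268 in wild-type libraries 1 to 3. *Hamp*, the hormone hepcidin, was listed at 0 in all 6 libraries, and *Tfr2*, *Hjv* and *Tmprss6*, known from the liver, were at or below 0.46 FPKM and not tested.

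In cellular iron uptake and export, the 13 tested genes pointed both ways, 8 negative and 5 positive, with a median of -0.04. *Steap3*, a ferrireductase of the transferrin cycle, was at 8.69, 7.25 and 7.96 FPKM in the *Ptpn6*+/mev and 4.51, 4.37 and 5.16 FPKM in the wild-type libraries. It was higher in every mutant library, with a log2 fold change of 0.73 ± 0.14 (SE) and an FDR of 0.092 in edgeR, 0.0033 in DESeq2 and 0.043 without wild-type library 2. *Cubn*, the endocytic receptor cubilin, which takes up filtered transferrin in the proximal tubule, was at 5.20, 8.33 and 5.01 FPKM against 11.28, 9.46 and 11.02 FPKM (-0.84 ± 0.19, SE, edgeR FDR = 0.13, DESeq2 FDR = 0.0034). Its edgeR FDR was 0.049 without wild-type library 2 and 0.032 without *Ptpn6*+/mev library 2. Its partner *Lrp2*, megalin, was at 22.65 to 29.22 FPKM in the mutant and 26.01 to 41.33 FPKM in the wild-type group (-0.44 ± 0.16, SE, edgeR FDR = 0.32). The 26.01 FPKM is wild-type library 2, without which the edgeR FDR was 0.039. *Lcn2*, which binds iron-carrying siderophores and marks tubular injury, was the most abundant at 1522 FPKM (-0.08 ± 0.35, SE, edgeR FDR = 0.96), and the iron chaperone *Pcbp1* followed at 165 FPKM (0.08 ± 0.10, SE, edgeR FDR = 0.82). When 1 library was left out, *Lcn2* ranged from -0.47 to 0.28.

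In mitochondrial iron and iron-sulfur cluster assembly, 6 of 12 tested genes were negative and 6 positive, with a median of 0.02. The scaffold *Iscu* was the most abundant at 183 FPKM (-0.17 ± 0.11, SE, edgeR FDR = 0.60), and the assembly factor *Isca1* followed at 71.38 to 76.14 FPKM (-0.02 ± 0.08, SE, edgeR FDR = 0.94). *Glrx5* was lower and *Slc25a28*, a mitochondrial iron importer, higher at an unadjusted p under 0.05, with edgeR FDRs of 0.38 and 0.39. Mitochondrial ferritin (*Ftmt*) was listed at 0 in every library.

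**Figure D5:**
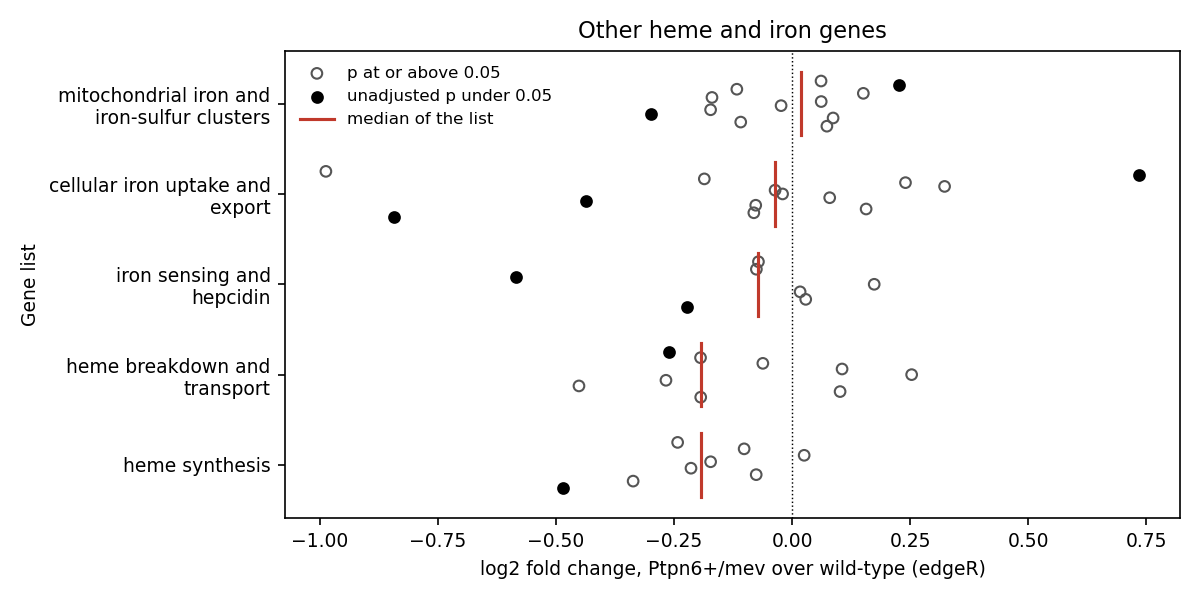
Log2 fold change (*Ptpn6*+/mev over wild-type, edgeR) of the 49 tested pathway genes in 5 lists, with filled points for an unadjusted p under 0.05, open points for the rest and a red line at the median of each list. The list medians run from -0.19 for both heme lists to 0.02 for the mitochondrial list, and *Steap3* at 0.73 is the highest point.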

How the data were processed

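After trimming adaptors and discarding poor sequence, the authors aligned reads with TopHat to GRCm38.p5 (Ensembl release 90) and computed FPKM with Cufflinks. The deposited table also holds estimated counts. The submitters' processing notes name Bowtie2 and RSEM too, without their roles. RNA was isolated with an RNeasy kit per the labels and with TRIzol per the methods. Estimated counts were rounded and tested in edgeR 4.0.16 (R 4.3.3; TMM, filterByExpr by group, glmQLFit and glmQLFTest, no covariates, FDR threshold 0.05). Standard errors were derived from the log2 fold change and its F value. FPKM gave levels only. Mice were separate animals, and no libraries of a group agreed within counting noise (chi-square per degree of freedom 6.48 to 45.3). The fit was tested on simulated data. Alternatives were DESeq2 1.42.0, limma 3.58.1 on log2(FPKM + 1) and log2(FPKM + 0.1), the edgeR exact test, other scalings and filters, a replicate block and leaving out each library. Members and lists were chosen with earlier results of these data known. The text names all members, *Ptpn6*, and from each list the called genes and the 2 most abundant, while further list genes were named after their values were seen. Marker lists are mostly given by counts and summed FPKM. Symbols were matched by name or through RefSeq synonyms, and *Ahsp* of the red cell list was not analysed here. Hairpin sites come from GENCODE M21 transcripts.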

Additional observations from a re-analysis of the deposited data

How the results depend on the processing

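Of 135 member fold changes under 15 alternatives, 121 kept their direction and their side of the threshold, 8 passed it and 6 turned direction. Those that turned were *Hp*, from -2.16 to 0.52 when 1 library was left out, *Cp*, from -0.38 to 0.18 (the latter without wild-type library 2), and *Slc11a2*, at 0.10 with limma on either FPKM scale. The median over all tested genes was 0.06 with limma on log2(FPKM + 1) and 0.08 on log2(FPKM + 0.1). Members called lower numbered 0 in the edgeR quasi-likelihood test, 3 with DESeq2, 2 with the edgeR exact test, 1 without the count filter and 0 to 2 when 1 library was left out (2 without wild-type library 2). Pathway genes called lower numbered 0, then 2, 2 and 0 to 2 with DESeq2, the exact test and 1 library left out, and those called higher 0, then 1, 1 and 0 to 1. Marker genes called lower numbered 1 in the quasi-likelihood test, 10 with DESeq2, 9 with the exact test, 0 with limma on either scale, 3 without the filter, 0 with the replicate block and 0 to 7 with 1 library left out, and those called higher 0, then 1, 1 and 0 to 1 with DESeq2, the exact test and 1 library left out. Over all genes, 9 were called lower in the quasi-likelihood test, 245 with DESeq2, 232 with the exact test, 28 without the filter, 0 with the replicate block and 0 to 132 with 1 library left out. Those called higher were 9, then 142, 158, 24, 1 and 1 to 99 in the same order, and 14 with limma on log2(FPKM + 1). The upper ends are without wild-type library 2, and the marker counts leave out the adipocyte list. The cause of these shifts was not tested.

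The replicate numbers were not used as pairs in the main test. Deviations from the group means correlated at -0.18 to -0.13 for equal numbers and -0.01 to 0.16 for others. As deviations within a group cancel out, these correlations constrain each other and cannot show that no pairing exists. With the replicate block 0 members were called. Counts limit *Hpx* and, with 25 in 1 library, *Hp*.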
